A study of Rattus norvegicus with 16 samples.

Results

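Sevoflurane, an inhaled anesthetic, was compared with oxygen alone (O2) in 4 brain regions of male Wistar rats aged 8 to 10 weeks. The comparison used 8 of the 16 arrays of the series, chosen by their titles: 4 labelled Sevoflurane and 4 labelled O2, with 1 array of each treatment in every region. Sevoflurane was given at 2.4%, 1 minimum alveolar concentration (MAC, the dose at which surgical movement is abolished in about every other subject), and both groups breathed 40% oxygen at 6 L/min for 60 min. The arrays were paired by region: LHb and MHb are the lateral and the medial part of the habenula, Sol is the nucleus of the solitary tract, and MVe is the medial vestibular nucleus. The regions were cut by laser from Nissl-stained sections 30 µm thick, and labelled cDNA was made from 100 ng of total RNA. The other 8 arrays, of propofol and its lipid vehicle, entered only an alternative fit. The labels do not tie the arrays to single rats, so the spread reported below is the spread between regions and not between animals. Because these are dissected tissue pieces, fewer cells of a type and less RNA per cell cannot be told apart.

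Egr1, Fos and Junb belong to the immediate early genes, which neurons and vascular cells transcribe within minutes of a stimulus without making new protein first. Calcium entry and growth factor signalling reach them through the kinases that phosphorylate CREB, the factor bound to cAMP response elements, and the partners of serum response factor, which is bound to CArG boxes. Sgk1, a serine/threonine kinase induced by serum and by glucocorticoids, is a target of the glucocorticoid receptor and rises in brain under stress. The habenula links the limbic forebrain with the monoamine nuclei of the midbrain, the solitary nucleus receives visceral afferents, and the medial vestibular nucleus receives afferents from the balance organ.

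Promoters of early genes are shown because the largest mean differences belonged to these genes. Entries covering 250 bases before and 50 after the start were found in RefSeq (build GRCr8) for 5 of 6 genes: Egr1, Junb, Sgk1, Nr4a1 and Npas4, with Fos as the sixth gene looked for. The 3 promoters with a motif match are printed 5′ to 3′, with matches in capitals. They lie at chr18:26736828-26737127 (Egr1, plus strand), chr19:40080876-40081175 (Junb, plus strand) and chr7:134259888-134260187 (Nr4a1, plus strand).
Egr1: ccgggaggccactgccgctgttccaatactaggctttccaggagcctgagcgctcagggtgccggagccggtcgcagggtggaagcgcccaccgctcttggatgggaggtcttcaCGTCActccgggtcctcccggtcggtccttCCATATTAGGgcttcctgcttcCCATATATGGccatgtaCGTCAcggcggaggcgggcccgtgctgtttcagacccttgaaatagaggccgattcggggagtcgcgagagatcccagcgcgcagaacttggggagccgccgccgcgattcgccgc
Junb: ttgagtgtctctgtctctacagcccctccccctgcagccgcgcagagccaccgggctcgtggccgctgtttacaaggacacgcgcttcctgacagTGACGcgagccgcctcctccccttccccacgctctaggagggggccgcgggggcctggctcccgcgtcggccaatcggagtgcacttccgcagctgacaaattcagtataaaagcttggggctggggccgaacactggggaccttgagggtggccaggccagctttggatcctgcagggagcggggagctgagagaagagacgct
Nr4a1: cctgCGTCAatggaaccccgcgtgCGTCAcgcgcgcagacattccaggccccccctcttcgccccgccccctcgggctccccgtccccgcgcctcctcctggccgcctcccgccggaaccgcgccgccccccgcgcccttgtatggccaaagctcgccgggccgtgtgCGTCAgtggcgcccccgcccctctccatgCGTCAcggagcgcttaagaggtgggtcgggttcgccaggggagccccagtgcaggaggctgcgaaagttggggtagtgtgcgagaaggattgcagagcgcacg
Motifs searched on both strands were the CArG box, the cAMP response element TGACGTCA, its core TGACG (which the full element contains) and the glucocorticoid response core TGTTCT. The Egr1 promoter held 2 CArG boxes, CCATATTAGG beginning 105 bases before the start and CCATATATGG beginning 83 bases before it, and 2 cAMP element cores. The Nr4a1 promoter held 4 such cores and the Junb promoter 1. Neither Npas4 nor any of the 3 listed starts of Sgk1 held a match to these letters in this window. Of 33469 promoters of the same length, 1.64% held a CArG box, 1.83% the full cAMP element, 21.2% its core and 20.7% the glucocorticoid core. A match describes the sequence and is not a measured binding site.

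The labels of the regions were set against marker genes, which did not separate all 4. Solitary nucleus markers had a median signal of 8.09 under Sevoflurane and 8.45 under O2 in Sol, and between 3.98 and 4.40 elsewhere. Among them tyrosine hydroxylase (Th) read 11.03 on the Sevoflurane array and 11.25 on the O2 array of Sol, and between 3.84 and 5.0 on the other 6 arrays. Glp1r was dim in Sol too, at 4.06 under Sevoflurane and 4.17 under O2. The nicotinic subunit gene Chrnb3, a habenular marker, read 10.42 under Sevoflurane and 10.29 under O2 in LHb, was brighter in MHb, and lay between 3.78 and 4.53 in the hindbrain regions. The medial habenula list's medians under Sevoflurane and O2 were 15.17 and 15.32 in MHb, 11.23 and 11.15 in LHb, 8.51 and 8.05 in Sol, and 6.08 and 5.69 in MVe. Its member Calb2 did not divide habenula from hindbrain: it read 16.33 on both MVe arrays, beside 16.61 and 16.70 in LHb. Hoxa2, a hindbrain patterning gene, read 10.04 under Sevoflurane and 10.84 under O2 in Sol, 8.80 and 9.08 in MVe, and between 3.83 and 4.51 in the habenula. The lateral habenula list did not set LHb apart from Sol: its median signal was 11.40 under Sevoflurane and 10.61 under O2 in LHb, and 9.98 and 10.70 in Sol. No marker particular to MVe was listed. All signals are log2 values. One array pair stood apart in its spread: the middle 50% of gene signals spanned 5.40 on the Sevoflurane array and 5.14 on the O2 array of MVe, against 5.52 to 5.55 on the other Sevoflurane arrays and at most 5.54 on the other O2 arrays, which were all wider than the MVe arrays. The area under the curve that separates positive from negative control probes was 0.920 on the MVe Sevoflurane array and 0.901 on the MVe O2 array. On the other 6 arrays it ran from 0.917 to 0.926, so only the MVe O2 array lay below that range. For the early genes with the largest MVe differences, means are also given without the MVe pair. Olfactory receptor genes, mostly silent in brain, served as a yardstick of background: the middle 90% of 1024 such genes had mean signals between 3.30 and 5.16.

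Across 15037 named genes, 0 (0%) passed an adjusted p of 0.05 in limma's paired fit, and the smallest adjusted p, 0.294, belonged to Egr1. At an unadjusted p under 0.05 there were 856 genes (5.69%), of which 485 (3.23%) were higher and 371 (2.47%) lower under Sevoflurane. After centring each array on its median the split was 286 higher and 609 lower, and after a further quantile normalization it was 432 higher and 423 lower, so the balance of directions depended on the scaling. Sevoflurane exceeded O2 in 4 of 4 regions for 1079 genes (7.18%) and lay below it in 4 of 4 for 973 (6.47%). All Sevoflurane arrays lay above all O2 arrays for 70 genes (0.466%) and below them for 86 (0.572%). The median 95% interval of a gene's mean difference was ± 0.36 on the log2 scale, or 1.28-fold.

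The 4 regions had unequal numbers of genes that differed by at least 1 on the log2 scale (2-fold) between their single arrays. By that much, 81 genes were higher under Sevoflurane and 74 lower in LHb. The counts were 124 and 99 for MHb, 106 and 101 for Sol, and 296 and 246 for MVe. MVe thus gave the widest spread, and it stayed so after quantile normalization, with 260 higher and 284 lower. The MVe pair also had a difference that followed signal: its median was −0.07, 0.01, 0.15 and 0.09 in 4 equal groups of genes from dim to bright. After quantile normalization the 4 medians were 0.00, 0.01, 0.00 and −0.01. That step gives every array the same distribution of signals, so it removes such a slope by construction. Differences correlated little between regions: Pearson's r over genes, which are not independent replicates, ran from −0.01 (LHb with Sol) to 0.09 (LHb with MHb). Few genes passed the 2-fold mark in the same direction in several regions. Egr1 and Junb did so in 4 regions. Apold1, Ccn1, Dusp1, Fos, Nr4a1, Sgk1 and a gene with a placeholder name did so in 3. A further 17 genes were higher in 2 regions and 544 in 1. No gene was lower by 2-fold in all 4 regions, Fam72a and Ttr were in 3, 13 genes were in 2 and 488 in 1.

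**Figure D1:**
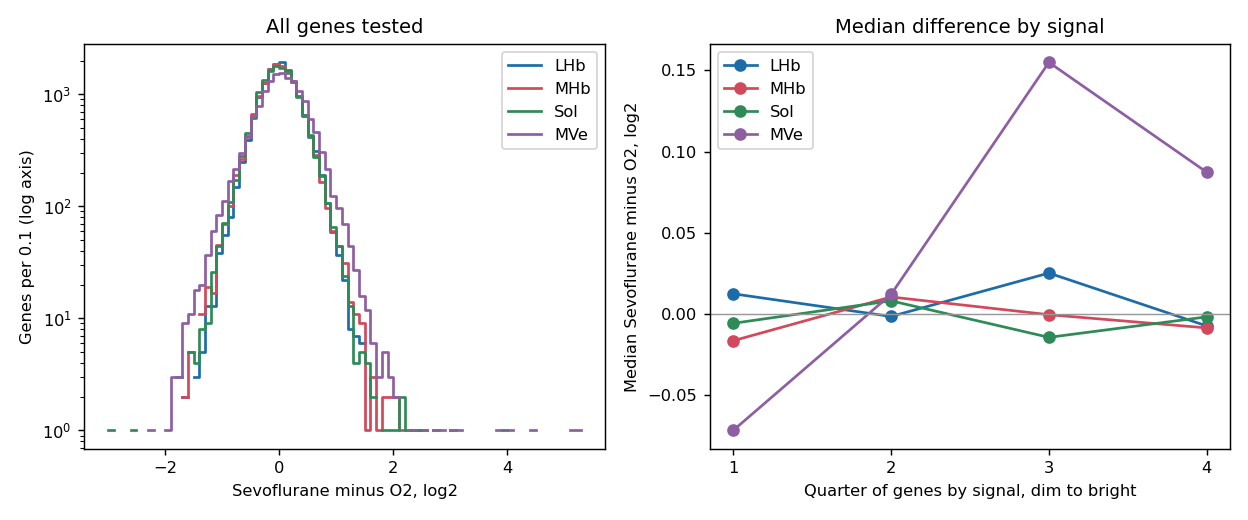
Left, number of genes (log axis) by Sevoflurane minus O2 difference (log2) in bins of 0.1, 1 line per region; right, median difference (log2) in 4 equal groups of genes ordered from dim to bright. The MVe line is wider than the others on the left, and on the right it runs between −0.07 and 0.15 while the other 3 regions stay near 0.

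Egr1, a zinc finger transcription factor used as a marker of recent neuronal activity, had the largest mean difference of all genes. For the regions in the order LHb, MHb, Sol, MVe, its log2 signals were 12.29, 10.42, 12.20 and 12.71 under Sevoflurane, against 10.80, 7.38, 8.29 and 7.53 under O2. Every region was higher under Sevoflurane, and the groups overlapped only because O2 in LHb was above Sevoflurane in MHb. The mean difference was 3.40 ± 0.45 on the log2 scale (moderated SE, n = 4 region pairs), or 10.6-fold with a 95% interval of 5.30 to 21.2, and limma's adjusted p was 0.294.

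Junb, a partner of Fos in the AP-1 transcription factor, separated the groups fully. In the same order of regions it read 6.62, 6.14, 7.82 and 8.89 under Sevoflurane, against 5.58, 5.04, 5.54 and 5.87 under O2. The difference was 1.86 ± 0.30 on the log2 scale, or 3.63-fold (95% interval 2.29 to 5.76), with limma's adjusted p at 0.688. Both habenular pairs differed by about the same amount, 1.03 in LHb and 1.10 in MHb, and the hindbrain pairs by 2.28 in Sol and 3.02 in MVe.

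Fos, the AP-1 subunit most used to map activated neurons, was higher under Sevoflurane in 3 of 4 regions. LHb, MHb, Sol and MVe read 10.09, 9.69, 9.10 and 11.63 under Sevoflurane, against 10.13, 6.89, 6.63 and 7.16 under O2. LHb was the exception: its O2 array already read as high as Sevoflurane arrays of other regions, and its difference was −0.04. The mean difference was 2.42 ± 0.53 on the log2 scale, or 5.37-fold (95% interval 2.36 to 12.2, limma's adjusted p 0.862). Leaving out the LHb pair raised it to 3.24 ± 0.33, and Fos then passed the threshold (adjusted p 0.016), as did Egr1 at 4.04 ± 0.33 (adjusted p 0.0042). No other gene did. LHb had the smallest difference for both genes, so leaving it out raises their means by construction. It also narrowed the spread between regions that the p-value measures, so these passes are not separate evidence.

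Sgk1 had a different order of regions. LHb, MHb, Sol and MVe read 13.23, 11.16, 9.25 and 12.73 under Sevoflurane, against 10.90, 9.24, 8.87 and 10.41 under O2. It was the only one of these 4 genes whose difference was smallest in Sol, at 0.38, against 2.33 in LHb, 1.92 in MHb and 2.32 in MVe. The mean was 1.74 ± 0.29 on the log2 scale, or 3.33-fold (95% interval 2.13 to 5.21, limma's adjusted p 0.688). Without the Sol pair it was 2.19 ± 0.17 and passed the threshold (adjusted p 0.0259). Here too the pair left out was the one with the smallest difference. Without the MHb pair no gene passed (limma's smallest adjusted p 0.247). With limma's trended and robust variance, Sgk1 (adjusted p 0.0274) and Junb (adjusted p 0.030) passed, and no other gene. Without the MVe pair no gene passed, and the means were 2.81 for Egr1, 1.74 for Fos, 1.47 for Junb and 1.54 for Sgk1, so the largest loss was in Fos. After quantile normalization the MVe differences themselves were 5.01 for Egr1, 4.32 for Fos, 3.03 for Junb and 2.18 for Sgk1.

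**Figure D2:**
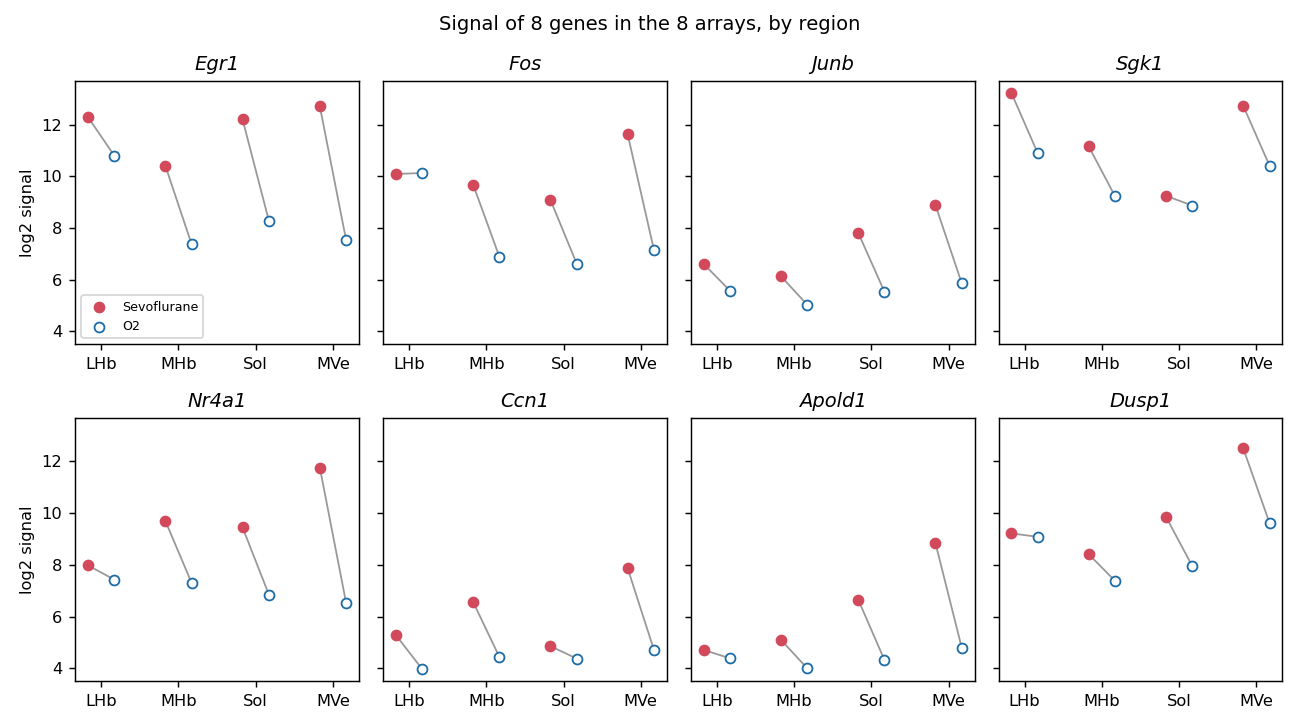
Log2 signal of 8 genes on the 8 arrays, 1 panel per gene, with Sevoflurane (filled) left of O2 (open) in each region and a line joining the pair. Lines descend to O2 in each panel and region except Fos in LHb, where 10.09 faces 10.13. The drop is steepest in MVe for all but Sgk1, which has 2.33 in LHb and 2.32 in MVe.

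Among 25 immediate early transcription factor genes, 21 had a mean difference above 0, with a median of 0.38 against 0.01 over all genes (52.8% of which lay above 0). At an unadjusted p under 0.05, 13 members were higher and 1 lower, beside 3.23% and 2.47% of all genes, and 9 were higher in 4 of 4 regions, beside 7.18%. No member passed the adjusted test. Of the 25 members, 4 never left the background range: Egr2, Egr3, Klf10 and Csrnp1. Csrnp1 held the list's median, 0.38, and was among the 13. Among the 6 members whose mean signal reached the median of all genes, the list's median was 1.75, against 0.03 over all such genes. Nr4a1, an orphan nuclear receptor induced by depolarization, separated the groups. LHb, MHb, Sol and MVe read 7.98, 9.71, 9.44 and 11.75 under Sevoflurane, against 7.43, 7.30, 6.85 and 6.52 under O2, a difference of 2.69 ± 0.55 (adjusted p 0.862), or 1.85 without MVe. Its sister gene Nr4a3 gave −0.09 in LHb and was higher by 0.64, 1.65 and 2.07 in the MHb, Sol and MVe pairs, with a mean of 1.07, or 0.73 without MVe. Npas4, a factor induced in neurons by calcium entry, read 5.98, 6.38, 6.32 and 8.93 under Sevoflurane in LHb, MHb, Sol and MVe, against 5.94, 5.67, 5.63 and 5.05 under O2. Its difference of 3.88 in MVe stood beside 0.04 in LHb, and its mean of 1.33 was 0.48 without MVe.

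The remaining members of this family, chosen after their values were seen, followed the same order of regions in part. Fosb, another Fos relative, differed by 1.06 ± 0.24 (0.80 without MVe) and Jun by 0.93 ± 0.40 (0.34 without MVe). Klf2 (0.87 ± 0.24) and Fosl2 (0.76 ± 0.18) were higher in 4 of 4 regions. Nr4a2 was higher by 0.27 to 0.49 in every region. Klf4, Ier2, Klf6 and Fosl1 differed by more than 1 in MVe alone, with 1.51, 1.12, 1.12 and 1.17 there and between −0.32 and 0.40 elsewhere. Not all relatives of Egr1 followed it: mean differences were 0.13 for Egr4, −0.03 for Egr2 and −0.07 for Egr3, and the signals of Egr2 and Egr3 never left the background range. Myc was the member lower in 4 of 4 regions, by 0.44 ± 0.16. By region, the list's median difference was 0.07 (LHb), 0.35 (MHb), 0.27 (Sol) and 1.12 (MVe, 1.18 after quantile normalization). The number of members higher by at least 1 was 2 in LHb (beside 0.539% of all genes), 6 in MHb (0.825%), 6 in Sol (0.705%) and 15 in MVe (1.97%). For 16 of the 25 members the highest regional difference was in MVe, and for 14 the lowest was in LHb. Without MVe the list's median was 0.33. Neuron markers were also higher in the MVe pair, with 12 of 13 above 0 and a median of 0.28, although their summed signal was 20.12 under Sevoflurane and 20.27 under O2. All 13 were brighter than the median gene. In that pair 8232 of all 15037 genes lay above 0, with medians of 0.09 to 0.15 in the brighter groups of genes before quantile normalization. The part of the neuron markers in the early gene differences was not tested.

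**Figure D3:**
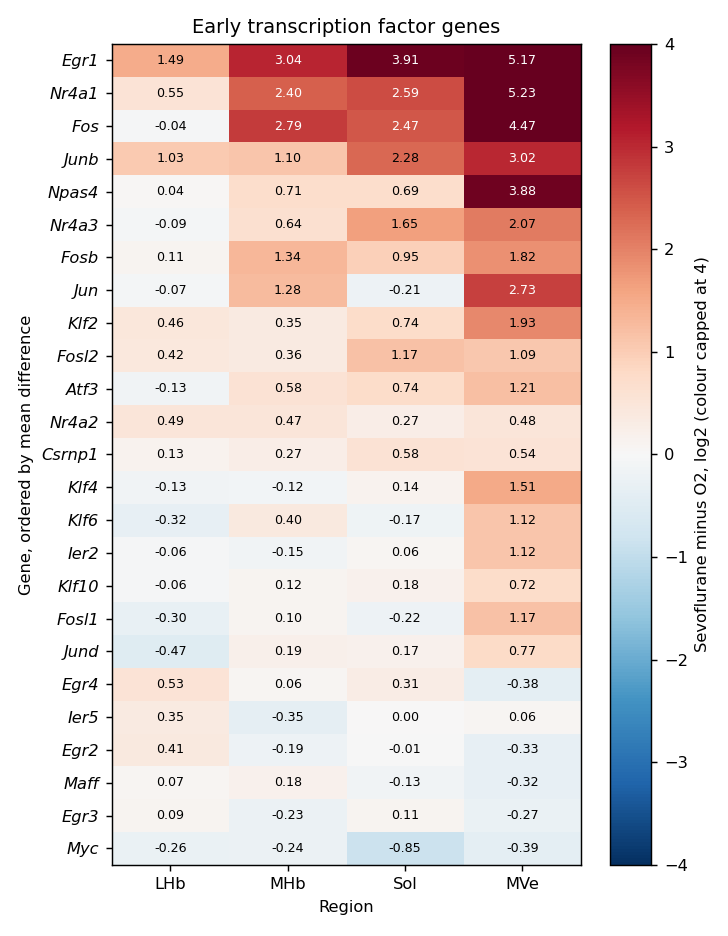
Sevoflurane minus O2 (log2, printed in each cell; colour capped at 4) for 25 early transcription factor genes in 4 regions, ordered by mean difference. The upper rows deepen toward MVe, where Egr1 reaches 5.17 and Nr4a1 5.23, while LHb holds values above 1 only for Egr1 (1.49) and Junb (1.03).

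Effector genes downstream of neuronal activity lay near the median of all genes, with Arc and Sik1 higher and Bdnf lower in every region. Of 20 measured, 11 had a mean difference above 0, the median was 0.05, and 2 were higher and 1 lower at an unadjusted p under 0.05, beside 3.23% and 2.47% of all genes. Without MVe the median was −0.09, so its sign rests on that pair. Arc, which controls AMPA receptor endocytosis at synapses, was 5.24, 6.16, 5.22 and 6.61 under Sevoflurane in LHb, MHb, Sol and MVe, against 4.81, 5.67, 4.28 and 4.73 under O2. Sik1, a kinase that restrains CREB-driven transcription, was higher in 4 of 4 regions by 0.44 to 0.89. Bdnf, the neurotrophin whose transcription is activity-dependent in many neurons, lay on the other side. It was 7.56, 3.70, 7.75 and 6.05 under Sevoflurane, against 7.99, 4.22, 8.46 and 6.54 under O2, lower in every region with a mean of −0.54 ± 0.14 (limma's adjusted p 0.862). In MHb both Bdnf signals lay within the background range, as did the O2 signals of Arc in LHb, Sol and MVe. The precursor Vgf was higher by 1.31 in MVe and between −0.58 and −0.13 in the other regions.

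Genes of the vascular and serum early response included Ccn1 and Apold1, both higher in every region. Of 13 measured, 11 lay above 0, with a median of 0.16, and 4 were higher and 0 lower at an unadjusted p under 0.05, beside 3.23% and 2.47% of all genes. Ccn1, a matricellular protein made by vascular cells, separated the groups: it read 5.28, 6.56, 4.85 and 7.86 under Sevoflurane in LHb, MHb, Sol and MVe, against 3.97, 4.44, 4.37 and 4.71 under O2. Its O2 values all lay within the background range, so the difference of 1.77 ± 0.34 (1.31 without MVe) starts from background. Apold1, an endothelial early gene, was 4.71, 5.10, 6.66 and 8.84 under Sevoflurane, against 4.38, 4.0, 4.32 and 4.79 under O2. Its difference was 4.05 in MVe and 0.32 in LHb, with a mean of 1.95 ± 0.47, or 1.26 without MVe. All O2 values of Apold1 lay within the background range too, as did its Sevoflurane values in LHb and MHb. Of the 13 genes of this list, 3 never left the background range, and 0 had a mean signal that reached the median of all genes. Adamts1, a secreted metalloprotease, was higher in 4 of 4 regions by 0.41 to 1.26. Of the endothelial and mural markers, 5 of 11 lay above 0, the median was −0.05, and their summed log2 signal ranged from 12.91 to 15.10 under Sevoflurane and from 12.96 to 15.16 under O2.

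Of 13 feedback regulators of MAP kinase signalling, 8 had a mean difference above 0, with a median of 0.07. Dusp1, the phosphatase that inactivates p38 and JNK, was 9.22, 8.41, 9.86 and 12.50 under Sevoflurane in LHb, MHb, Sol and MVe, against 9.08, 7.38, 7.95 and 9.62 under O2, a mean of 1.49 ± 0.35, or 1.02 without MVe. Errfi1, an inhibitor of the EGF receptor, followed with 0.66 ± 0.26 and was lower by 0.31 in Sol. Other members stayed near 0: Dusp6, an ERK phosphatase, gave −0.12 and Spry2, an inhibitor of receptor tyrosine kinase signalling, −0.25.

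Glucocorticoid-responsive genes lay mostly above 0, while Fkbp5 and Tsc22d3, both widely used readouts of the receptor, lay near 0. Of 24 measured, 20 had a mean difference above 0, the median was 0.23, and 8 were higher and 1 lower at an unadjusted p under 0.05, beside 3.23% and 2.47% of all genes. Sgk1, Dusp1, Per1 and Errfi1 are also members of other lists or markers described above. Lcn2, a secreted iron-siderophore binding protein, was higher by 0.19 to 1.47 in the 4 regions, and Cdkn1a, the cell cycle inhibitor p21, by 0.83 ± 0.25 on average with −0.23 in Sol. Fkbp5, the co-chaperone of the glucocorticoid receptor, gave 0.16 ± 0.16, Tsc22d3, known as GILZ, −0.01 ± 0.17, and Klf9 0.05 ± 0.19. These 3 were chosen after their values were seen. Angptl4 was lower by 0.44 ± 0.17. For LHb, MHb, Sol and MVe the list's medians were 0.16, 0.19, 0.24 and 0.41.

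Among circadian clock genes, Per1, the period gene that also responds to light and stress, separated the groups. It read 8.84, 9.15, 9.29 and 9.10 under Sevoflurane in LHb, MHb, Sol and MVe, against 8.45, 8.75, 8.43 and 8.06 under O2. The mean was 0.67 ± 0.16. Ciart, a repressor of the clock, was higher by 0.72 ± 0.20 and Nfil3, a repressor of D-box genes, by 0.44 ± 0.15. Bmal1, the partner of Clock, was lower by 0.44 ± 0.19, mostly through Sol (−1.11). The other period genes gave 0.09 for Per2 and 0.21 for Per3, and 12 of 16 clock genes had a mean above 0 with a median of 0.06. That median was 0.20 without LHb and −0.02 without MVe, so its size and sign rest on single pairs.

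Heat shock and protein folding genes had medians near 0. Of 16 heat shock genes 7 lay above 0 with a median of −0.01, and of 16 genes of the unfolded protein and low oxygen responses 8 lay above 0 with a median of 0.03. Bag3, a co-chaperone, was higher in 4 of 4 regions by 0.06 to 0.78, and the glucose transporter gene Slc2a1 by 0.17 to 0.56. Hsph1, a large heat shock protein, was lower by 0.84 in Sol and 0.39 in LHb, with 0.29 in MHb and 0.20 in MVe. Mitochondrial respiratory chain genes, 27 in number, had a median of 0.04 (19 above 0), and this sign turned after array centring (−0.01). Their largest mean difference was 0.33 ± 0.15, for Uqcrc1, a core subunit of complex III.

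Volatile anesthetics act on ligand-gated and background ion channels, whose genes were therefore listed. Of 14 GABA-A receptor subunit genes 8 lay above 0, with a median of 0.04. An unadjusted p under 0.05 in limma was reached by 0 members, beside 5.69% of all genes, a share too small for 14 genes to differ from. The MHb pair was the exception within this list: Gabrb2, the β2 subunit gene, read 7.42 there under Sevoflurane and 5.39 under O2, and Gabrg3 read 7.57 and 5.94. In the other 3 regions these 2 genes differed by between −0.39 and 0.43. Gabre was lower by 1.00 in MHb and 0.67 in Sol. A pair of genes of other families showed the same pattern in MHb: the glycine receptor gene Glra1, at 5.65 under Sevoflurane and 4.37 under O2, and the muscarinic receptor gene Chrm3, at 7.16 and 5.54. In LHb, Gabrb2 read 13.42 under Sevoflurane and 13.09 under O2, and Gabrg3 10.69 and 10.37, so these genes were brighter in the adjacent nucleus. Of the 8 lateral habenula markers, however, 1 (Chrm3) was above 0 in the MHb pair and 7 were below, with a median of −0.34. Whether MHb pieces differed in the LHb tissue they held was not tested.

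Among 13 tandem-pore potassium channel genes, 3 had a mean difference above 0 and the median was −0.12. Of the 13, 5 never left the background range. Kcnk4, the TRAAK channel gene, was higher by 1.25 in MVe, and Kcnk16 was lower in 4 of 4 regions by 0.44 ± 0.16 at low signal. Kcnk9, the TASK-3 channel gene, gave −0.06 and Kcnk2, the TREK-1 gene, −0.15. Both were chosen after their values were seen. Ionotropic glutamate receptor genes lay mostly above 0 (10 of 15, median 0.17, or 0.05 without MVe). Grin2a, the NMDA receptor GluN2A subunit gene, was 8.45, 7.40, 8.21 and 8.64 under Sevoflurane in LHb, MHb, Sol and MVe, against 8.15, 6.82, 7.83 and 7.85 under O2, a mean of 0.51 ± 0.15. Grin2d was higher by 1.80 in MVe and lower by 0.62 in MHb. Nicotinic subunit genes had 3 of 11 above 0 with a median of −0.03, and HCN and T-type calcium channel genes 3 of 6 with a median of −0.01.

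Neuropeptide precursor genes leaned lower under Sevoflurane. Of 29 measured, 9 lay above 0, the median was −0.14, and 4 were lower and 0 higher at an unadjusted p under 0.05, beside 2.47% and 3.23% of all genes. Nts, the neurotensin precursor gene, was 5.54, 5.69, 13.28 and 6.24 under Sevoflurane in LHb, MHb, Sol and MVe, against 5.92, 6.22, 13.70 and 7.05 under O2. Cck, the cholecystokinin gene, was lower by 0.56 ± 0.17 on average, by 0.92 in Sol and by 0.07 in MHb. Sst, the somatostatin gene, was lower in LHb (1.22), MHb (0.55) and Sol (0.76) and higher by 0.40 in MVe. Npy, the neuropeptide Y gene, was higher by 1.16 in Sol, where it read 11.01 under Sevoflurane and 9.85 under O2. Of the 29 members, 9 never left the background range, and among members whose mean signal reached the median of all genes the list's median was 0.00.

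**Figure D4:**
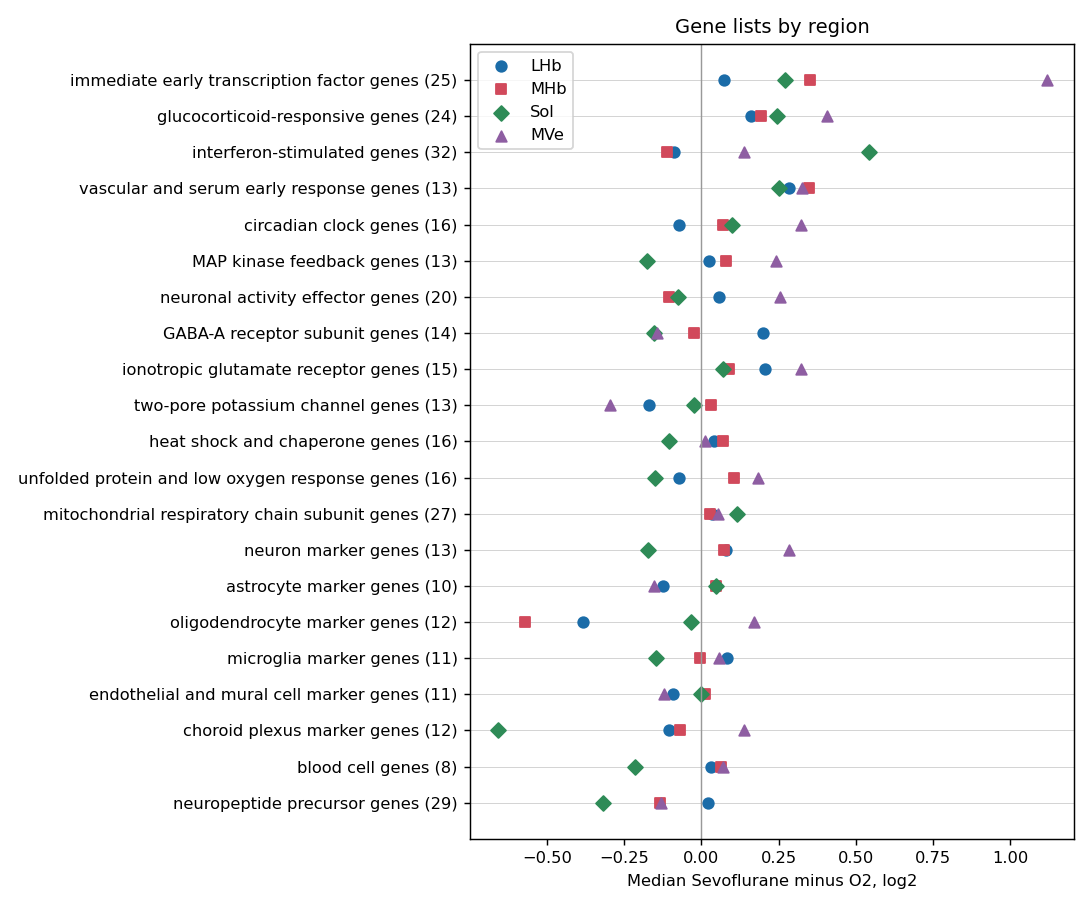
Median Sevoflurane minus O2 difference (log2) over the members of 21 gene lists, with the number measured in brackets and 1 marker per region. Early transcription factor genes in MVe (1.12) lie farthest right, choroid plexus markers in Sol (−0.66) and oligodendrocyte markers in MHb (−0.57) farthest left. The interferon list was chosen after its values were seen.

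Markers of other cell types differed in single region pairs. Oligodendrocyte markers were lower in the habenula, with 1 of 12 above 0 in LHb (median −0.38) and 1 of 12 in MHb (−0.57), and had medians of −0.03 in Sol and 0.17 in MVe. Their summed log2 signal, which follows the brightest members, was lower in MVe too, at 19.91 under Sevoflurane and 20.23 under O2, and in LHb it was 19.76 and 20.14. Mobp, a myelin protein gene and the brightest member, read 19.11 under Sevoflurane and 19.58 under O2 in MVe. Mbp, the myelin basic protein gene, read 17.71, 15.76, 16.11 and 18.09 under Sevoflurane in LHb, MHb, Sol and MVe, against 18.17, 16.83, 16.05 and 18.28 under O2. Ugt8, an enzyme of myelin lipid synthesis, was lower by 0.72 in LHb and 1.07 in MHb. Olig2, the lineage factor, was the member higher in 4 of 4 regions (0.33 ± 0.14). The summed log2 signal of the list ran from 17.89 to 19.91 under Sevoflurane and from 17.64 to 20.23 under O2, and none of its members stayed within the background range.

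Choroid plexus markers were lower in Sol, where 11 of 12 lay below 0 with a median of −0.66. Ttr, the transthyretin gene and the most abundant transcript of the choroid plexus, was 6.62, 13.43, 12.18 and 17.11 under Sevoflurane in LHb, MHb, Sol and MVe, against 7.68, 14.63, 15.10 and 16.99 under O2. Its difference was −2.92 in Sol and 0.12 in MVe, and it was −1.26 ± 0.37 on average, the lowest mean of all genes. Kcnj13, a potassium channel of the choroid epithelium, was lower by 1.58 in MHb and 0.93 in Sol. The summed log2 signal of the 12 markers was 14.93 in Sol under Sevoflurane and 16.42 under O2. Over the 4 regions it ran from 14.93 to 17.94 under Sevoflurane and from 15.84 to 17.92 under O2. Aqp1 and Slc4a5 stayed within the background range. The summed signal of the markers was highest in MVe, at 17.94 under Sevoflurane and 17.92 under O2. The part of dissected plexus in other differences of any region pair was not tested.

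Among other cell types, blood genes had a median of 0.03, while the β-globin gene Hbb was lower in 4 of 4 regions, at 14.37, 12.72, 15.97 and 17.02 under Sevoflurane in LHb, MHb, Sol and MVe, against 15.13, 13.42, 16.64 and 17.16 under O2. Another β-globin gene, Hbb-b1, was lower by 0.98 in LHb, 0.54 in MHb and 0.59 in Sol, and higher by 0.28 in MVe. Mean differences of the α-globin genes were −0.25 for Hba-a3, which is outside the list, and 0.15 for Hba-a1. The list's median over its brighter members was −0.46, and −0.11 over all members without Sol. List medians over the mean differences were −0.02 for astrocytes, 0.09 for microglia, −0.13 for ependyma and 0.08 for neurons. The astrocyte connexin gene Gjb6 stood out in MHb, at 8.02 under Sevoflurane and 6.59 under O2, where its signal was far below that of the other regions. Region markers were mixed: the median over lateral habenula markers was −0.05, over medial habenula markers 0.18, over solitary nucleus markers −0.21 and over Hox genes −0.30. Many signals behind the last values were background: median signals were 3.98 to 4.40 for solitary nucleus markers outside Sol. For Hox genes in the habenula they were 4.05 to 4.49. Within Sol, Dbh, the enzyme that makes noradrenaline, read 10.70 under Sevoflurane and 11.88 under O2, while Th differed by −0.22.

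Beyond the lists, the genes with the smallest p outside the early response were modest in size. None passed the threshold, and limma's adjusted p was 0.862 for each gene of this paragraph. Higher were Slc35c2 (0.77 ± 0.15), Rwdd2a (0.94 ± 0.19), the urate transporter gene Slc22a12 (0.69 ± 0.15) and Serpinb6a, a serine protease inhibitor (0.62 ± 0.14). O2 signals of Rwdd2a and Slc22a12 all lay within the background range. Lower were Wnt5a, a secreted Wnt ligand (−0.75 ± 0.14), Mir6323 (−0.73 ± 0.16), Fam72a (−1.02 ± 0.24), Klri2 (−0.62 ± 0.15), Tasp1, the protease that cleaves MLL (−0.63 ± 0.15), Pmf1 (−0.72 ± 0.18) and Ghdc (−0.60 ± 0.15). With them came 3 olfactory receptor genes, Or5ap2, Or7g21 and Or1e1e (−0.69, −0.68 and −0.55), whose signals stayed between 3.04 and 4.90. Wnt5a read 5.76, 5.40, 6.35 and 6.46 under Sevoflurane in LHb, MHb, Sol and MVe, against 6.44, 6.37, 7.06 and 7.08 under O2, so each region was lower though the groups overlapped.

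The steadiest differences among brighter genes were judged by the weakest of the 4 regions. On the higher side Egr1 (1.49 in its weakest region) and Nr4a1 (0.55) were followed by Serpinb6a, whose 4 differences lay between 0.53 and 0.71. It read 8.25, 9.30, 9.66 and 7.96 under Sevoflurane, against 7.72, 8.66, 8.95 and 7.37 under O2 in LHb, MHb, Sol and MVe. Lgals9, the galectin-9 gene, differed by 0.48 to 0.76, Pmm2, a mannose enzyme of protein glycosylation, by 0.45 to 0.86, Tom1l1 by 0.44 to 0.60, Maob, the monoamine oxidase of astrocytes and serotonin neurons, by 0.38 to 1.06, and Zswim8 by 0.37 to 0.59. Per1 (0.39 in its weakest region) and Sgk1 (0.38) completed this group. On the lower side Tasp1 came first, with differences between −1.01 and −0.46. After it came Rap2c, a Ras-family GTPase (−0.67 to −0.36), Dnajc21, a co-chaperone (−0.64 to −0.33), Snrnp27, a spliceosome protein (−0.51 to −0.33), Ndufa6, a subunit of complex I (−0.57 to −0.32), and Zfp329 (−0.62 to −0.29). Rras2, Rassf3, Gorasp2 and Dram2 were lower by at least 0.26 in every region. These sizes are small beside the early genes, and none passed the threshold.

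Within single regions the extremes were as follows, from 1 array against 1 array and without a test. In LHb, Sgk1 (2.33) and Egr1 (1.49) were followed by the DNA repair gene Ercc1 (1.48), Pld4 (1.38) and Arhgap24 (1.36). The lowest in LHb were Fgf1, a fibroblast growth factor (−1.63), Cyp2j10 (−1.32), Ctxn3 (−1.28), Cdk5rap2 (−1.28) and Pih1d2 (−1.27). LHb thus had the narrowest extremes. In MHb, Egr1 (3.04), Fos (2.79) and Nr4a1 (2.40) preceded Gabrb2 (2.03) and Slc35g1 (2.01), and the lowest were Irx5 (−1.69), Igf1, the insulin-like growth factor (−1.39), Chst12 (−1.37), Ccdc190 (−1.32) and Slc2a6 (−1.29). In Sol, Egr1 (3.91), Nr4a1 (2.59), Fos (2.47) and Junb (2.28) preceded the antiviral GTPase gene Mx1 (2.19). The lowest in Sol after Ttr were Rxfp3, the relaxin-3 receptor (−1.76), Wt1 (−1.51), the globin gene Hba-a3 (−1.48) and the zinc transporter gene Slc39a12 (−1.45). In MVe, Nr4a1 (5.23), Egr1 (5.17), Fos (4.47), Apold1 (4.05) and Npas4 (3.88) were highest. Slc39a12 (−2.24), Idi2 (−1.77), Layn (−1.67), Taar7g (−1.65) and Igf2bp1 (−1.62) were lowest there. Egr1 was among the 5 highest genes of every region, and the 5 lowest genes shared only Slc39a12 between Sol and MVe.

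A list of 33 interferon-stimulated genes was added after their values in Sol had been seen, and 32 were measured. In the Sol pair 28 of 32 were higher under Sevoflurane, with a median of 0.54, and 9 were higher by at least 1 (beside 0.705% of all genes). Mx1 read 7.66 in Sol under Sevoflurane and 5.47 under O2, Mx2 9.86 and 7.83, Igtp 7.92 and 5.79, and Oasl2 8.78 and 6.92. In the other regions these 4 genes differed by between −0.42 and 0.91. List medians there were −0.09 in LHb, −0.11 in MHb and 0.14 in MVe. Interferon-stimulated genes mark a response to type I or II interferon. The microglia markers of the Sol pair had a median of −0.15, with 5 of 11 above 0. Because the Sol pair is 1 array against 1 array, rat and treatment cannot be told apart in this difference.

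**Figure D5:**
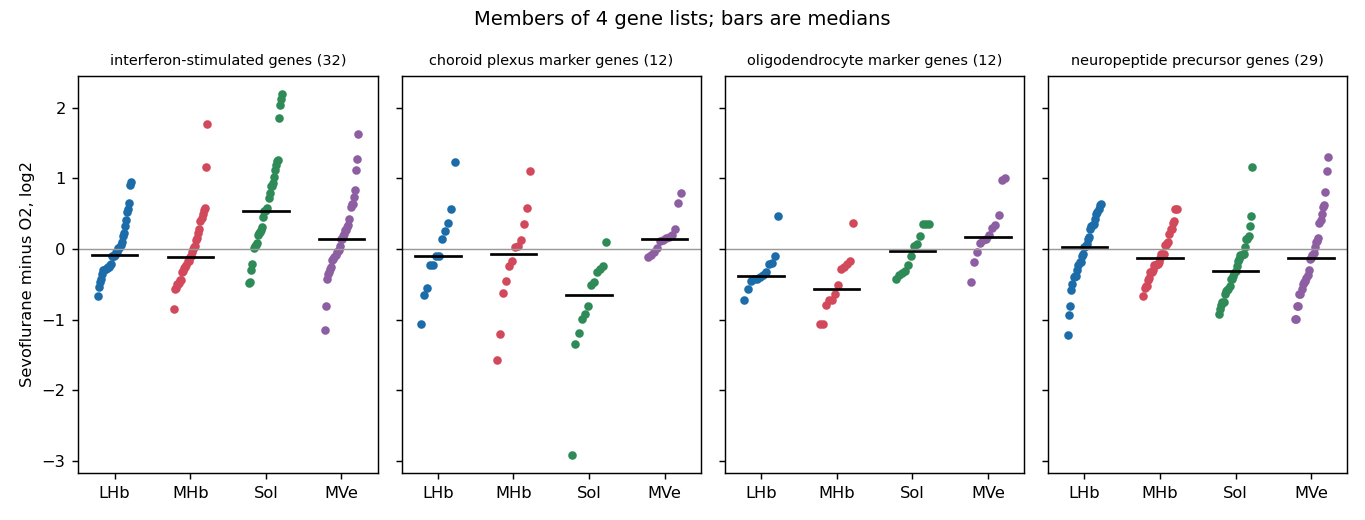
Sevoflurane minus O2 (log2) for each member of 4 gene lists, by region, with members sorted within a region and a bar at the median. Interferon-stimulated genes reach 2.19 in Sol and their medians elsewhere stay between −0.11 and 0.14. Choroid plexus markers reach −2.92 in Sol, and oligodendrocyte markers lie mostly below 0 in LHb and MHb.

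The last comparison asked whether the Sevoflurane difference was itself different in the hindbrain regions (Sol and MVe) and the habenula (LHb and MHb). Of 15037 genes, 0 (0%) passed an adjusted p of 0.05 in limma, the smallest adjusted p was 0.871, and 855 (5.69%) had an unadjusted p under 0.05. The smallest p values belonged to genes outside the early response. Slc39a12 had Sevoflurane values of 8.85, 7.03, 6.37 and 7.0 in LHb, MHb, Sol and MVe, against O2 values of 8.64, 6.65, 7.82 and 9.23. Its difference was lower in the hindbrain than in the habenula by 2.14 ± 0.34. The hindbrain difference was also lower for Crh, the corticotropin-releasing hormone gene (−1.46 ± 0.28), Or8b53 (−1.60 ± 0.28), Cyp3a62 (−1.75 ± 0.36) and Trdn (−1.39 ± 0.29). It was higher for Rps7-ps20, a ribosomal pseudogene (1.80 ± 0.31), Kcne4, a potassium channel accessory subunit (1.66 ± 0.32), RT1-S3, a class I histocompatibility gene (1.51 ± 0.29), Hapln4, a link protein of the extracellular matrix around neurons (1.46 ± 0.30), and Clec14a, an endothelial lectin (1.45 ± 0.30). The early genes that were larger in MVe gave no call here.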

How the data were processed

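Values deposited by the authors are log2 signals per probe set. Expression Console 1.3.0 is the tool named by the submitters' processing notes. How probes were summarized, and on which build, is not given in the sources used here. That the scale is log2 was inferred from the range, which ran from 2.49 to 19.9 on the 8 arrays. Folds rest on it. Of 24834 probes, 1646 were controls, 15049 had 1 gene symbol in the platform annotation (updated by gene identifier), 0 had several and 8139 had none. The brightest probe of each symbol over the 8 arrays was kept, giving 15037 genes. No dim gene was dropped and nothing was normalized further.

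Sevoflurane minus O2 was fitted by limma 3.58.1 (R 4.3.3) to the 8 arrays, by lmFit and eBayes with region as a block (3 residual and 6.88 prior degrees of freedom, two-sided), with Benjamini-Hochberg adjustment over all genes and a threshold of 0.05. Hindbrain minus habenula had 2 residual degrees of freedom. Errors written ± are moderated standard errors. A two-sided exact sign-flip test of 4 pairs cannot give a p below 0.125. The pairing comes from the region labels. The fit was tested on simulated data. The number of arrays limits the precision. Nothing says that arrays came from separate animals, so p-values measure only the spread between regions.

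The comparison and the 28 gene lists (405 genes, 368 measured) were chosen with earlier results of these data known, and a list of interferon genes was added later; lists were described without a test. Named were the 4 marker genes, 10 genes per direction with the smallest p (none passed), 10 per direction with the largest weakest-region difference among genes whose brighter array in every pair reached the median signal of 7.04, 5 per direction in each region pair by the same median, up to 6 members per list and 5 per direction of the hindbrain contrast. Placeholder symbols were counted only. Other genes were chosen after their values were seen. Alternatives changed the arrays, variance estimate, filter, probe choice, normalization, block and regions used. Numbers were summarised with pandas 2.3.3 in Python 3.11.15.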

Additional observations from a re-analysis of the deposited data

Results flagged for a closer look

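Chance flags about 1 in 20 groups of 4 values, and of 41 groups checked 5 held a value apart from the other 3. Among regional differences these were Klri2 in LHb (−0.30, against −0.74 to −0.71 elsewhere), Or1e1e in Sol (−0.41, against −0.61 to −0.59) and Tasp1 in MVe (−1.01, against −0.53 to −0.46). Among array properties they were the interquartile range of gene signals in MVe, at 5.40 within the Sevoflurane arrays and 5.14 within the O2 arrays.

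Of the 10 genes chosen for the smallest p of hindbrain minus habenula, 9 had both hindbrain pairs on one side of 0 and both habenular pairs on the other, a pattern that this choice favours. The hindbrain minus habenula difference was 1.45 for Clec14a, −1.46 for Crh, −1.75 for Cyp3a62, 1.66 for Kcne4, −1.60 for Or8b53, 1.51 for RT1-S3, 1.80 for Rps7-ps20, −2.14 for Slc39a12 and −1.39 for Trdn. Each was tested with limma and none passed, with an adjusted p of 0.871 for all 9.

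Among 8139 probes without a gene symbol here, 1 was higher under Sevoflurane by at least 0.6 in 4 of 4 regions and 0 were lower by as much. That probe, TC0300002690.rn.2, read 7.32, 7.73, 7.34 and 7.06 under Sevoflurane in LHb, MHb, Sol and MVe, against 6.39, 7.07, 6.58 and 6.06 under O2, a mean difference of 0.84. Among named genes 2 were higher and 1 lower by that much in all 4 regions.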

How the results depend on the processing

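Of 407 values of named genes under alternatives, 402 kept their direction and side of the threshold and 5 newly passed it. The 61 values for hindbrain minus habenula kept both. The count of genes past the threshold for Sevoflurane minus O2, 0 as reported, was 2 with trended and robust variance and 0 to 2 when each region was left out. It was 0 with no replicate block, a fit that ignores the pairing by region and in which 131 genes had an unadjusted p under 0.05 in place of 856. That unadjusted count was 519 among genes at or above the median signal (352 higher and 167 lower, beside 485 and 371 over all genes) and 1285 when every probe but the controls was tested, and for hindbrain minus habenula it was 436 among brighter genes in place of 855. These 3 settings tested other numbers of features, and the cause was not tested further. Genes past a region's difference of 1 numbered 155, 223, 207 and 542 for LHb, MHb, Sol and MVe. At 1.5 they numbered 3, 22, 26 and 70, at 2 they numbered 1, 6, 10 and 14, and with the brighter array at the median or above 55, 73, 82 and 240. A quantile normalization added after the data were seen gave 147, 237, 188 and 544. Of 250 list medians under alternatives, 9 moved by more than the spread between regions. Medians within 0.1 of 0 (effector, clock, MAP kinase feedback, stress, GABA-A, glycine, nicotinic, pacemaker, choroid, blood and lateral habenula lists) took either sign as single regions were left out. The 16-array fits also gave 0 calls. Dim genes are limited by background, and 1 array per region and treatment limits every regional value.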
